A study of Mus musculus with 8 samples.

Results

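The transcript levels of 10 mouse genes of fibroblast growth factor (FGF) signalling were analysed in JunB cKO and wild type mice. The genes are the ligands Fgf5, Fgf7, Fgf10, Fgf18 and Fgf22, the receptors Fgfr1, Fgfr2, Fgfr3 and Fgfr4, and the carrier protein gene Fgfbp1. They were found by symbol in 3 tables, which hold 26340 gene symbols for unperturbed samples, 46036 for hair plucking and 46048 for wounds. All 10 had a row in the unperturbed table. For plucked skin and wounds 9 did, because Fgfr2 was listed there only in a joint row with Ctbp2.

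All animals were C57BL/6 mice. In JunB cKO mice, JunB is removed by Cre recombinase under the K14 promoter, hence in basal epidermal cells and their progeny, whereas the dermis, muscle, vessels and blood cells keep the gene. Control animals were wild type (JunB +/+). The unperturbed pair is labelled as keratinocytes isolated with trypsin, while the study describes dorsal skin of 60-day-old mice. The plucked pair is skin taken 4 days after hair depilation, from mice plucked at 54 days of age, and the wound pair is skin 30 days after wounding. The study describes 6 mm punches for its healing experiments, but the wound size of the sequenced samples is not given. For sequencing, RNA from 3 samples of each group had been combined, leaving 1 library per genotype for the unperturbed and plucked pairs and 2 for wounds. Each table nevertheless holds only 1 value per genotype and gene. No difference given here therefore has a replicate check, and none was tested.

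FGF signals pass between the mesenchyme and the epithelium of the hair follicle. Ligands bind receptor tyrosine kinases together with heparan sulfate chains and act mainly through the Ras and MAP kinase cascade, whose feedback inhibitors and ETS transcription factors are themselves target genes. FGF7 and FGF10 come mostly from dermal cells and act on the epithelial splice form of FGFR2, FGF5 ends the growth phase (anagen) of the hair, FGF18 is known from the resting phase (telogen) and FGF22 from the inner root sheath.

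The values are FPKM, that is reads per length of the transcript and size of the library. Low FPKM values of the unperturbed and plucked tables came in steps of whole reads, so that the number of reads behind a value could be estimated. In wounds only 27.9% of low values in wild type and 57.4% in cKO lay on multiples of a single step, and reads and intervals given for wounds are approximate. For 1 kb of transcript, each FPKM corresponded to 16.9 reads in the unperturbed wild type sample but to only 4.98 in the cKO sample, a 3.39-fold difference in depth. In plucked skin it corresponded to 16.3 and 12.9 reads and in wounds to about 41.5 and 39.96 reads. Intervals given below are 95% Poisson intervals of these estimated reads. They cover counting error only, since amplified reads are not independent molecules. Junb itself was lower in cKO in each table, with 268 against 31.4 FPKM in unperturbed samples, 40.8 against 11.7 after plucking and 33.4 against 15.4 in wounds. In the unperturbed pair, labelled as keratinocytes, the markers were those of keratinocytes, with 3804 and 3803 FPKM for Krt5 and Krt14 together and only 13.7 and 12.5 for 6 fibroblast markers together (Col1a1, Col1a2, Col3a1, Pdgfra, Dcn and Lum). In plucked skin the same 6 fibroblast markers summed to 5109 and 1856 FPKM, and in wounds to 10532 and 13412. The tables were normalized separately, so that levels set side by side across them are descriptive.

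Among the members detected in both genotypes of plucked skin, Fgf7 differed most, with 3.33 FPKM in cKO against 15.3 in wild type. Changes are given as the log2 ratio of cKO over wild type, with 0.1 added to each FPKM, and a gene was called at a ratio of at least 2-fold. In plucked skin 1 of 9 members, Fgf5, was called higher in cKO, beside 9.93% of all symbols, and 2 members, Fgf7 and Fgfr4, were called lower, beside 8.38%. Many of all symbols were listed at 0 in both genotypes and could not be called. At 1 FPKM or more in the higher genotype, a level these 3 members reached, the shares were 21% and 18.7%. In wounds 1 of 9 members was called higher, Fgfr4, beside 6.4% of all symbols, and 1 was called lower, Fgf18, beside 7.46%. At 1 FPKM or more the shares in wounds were 9.08% and 7.67%. In the unperturbed pair 3 of 10 members, Fgf5, Fgf10 and Fgfr4, were called higher, beside 37.8% of all symbols, and 0 were called lower, beside 2.16%. The median log2 ratio of the members was -0.09 in the unperturbed pair, 0.00 after plucking and 0.16 in wounds. For all symbols it was 0.18, 0.00 and 0.00. Genes listed at 0 in both genotypes, as Fgf10 and Fgf18 after plucking, enter these medians with a ratio of 0. At 1 FPKM or more in the higher genotype, the medians of the members were -0.30, -0.17 and 0.16. Those of all symbols at this level were -0.04, 0.03 and 0.02.

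**Figure D1:**
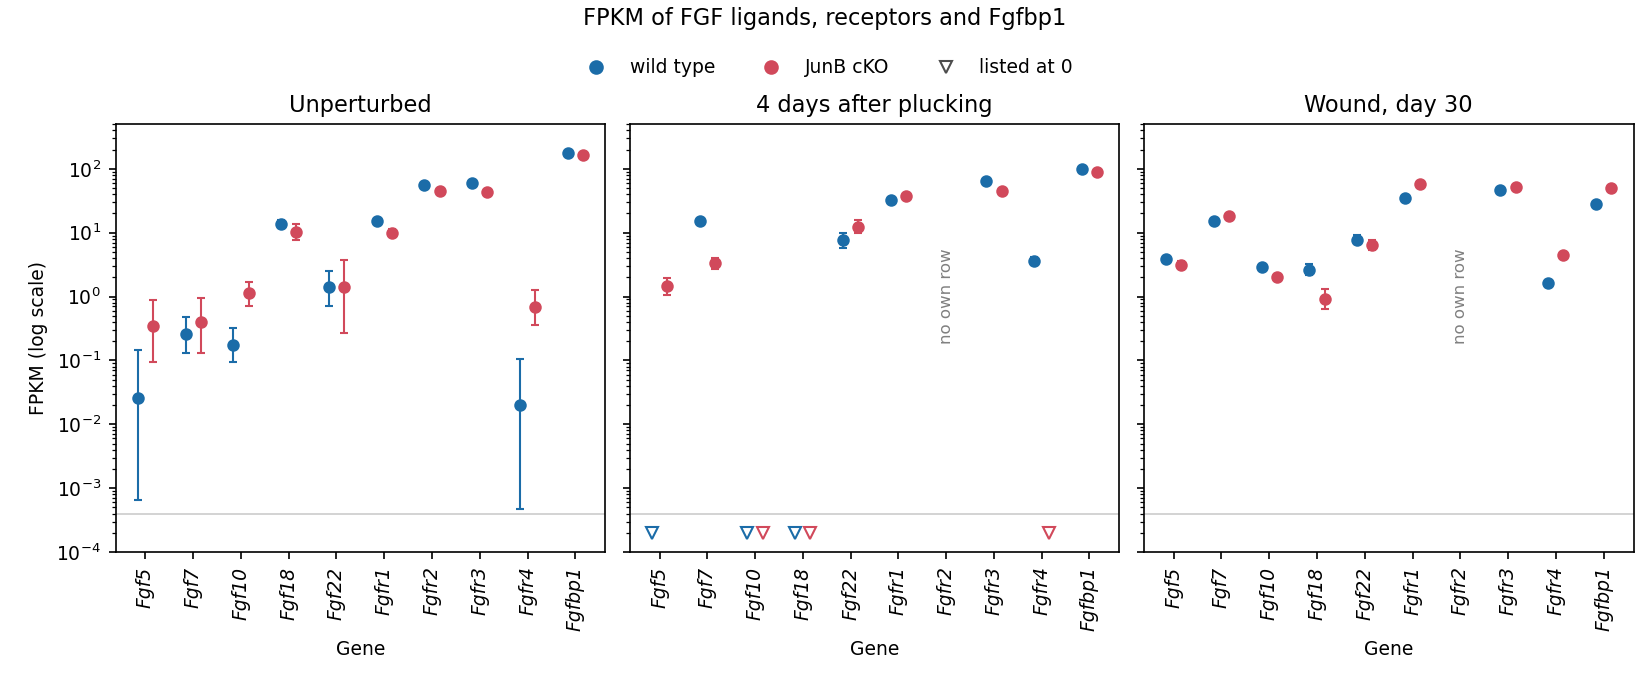
FPKM (log axis) of each gene in wild type (blue) and JunB cKO (red) in the 3 tables, with 1 value per genotype. Bars are 95% counting intervals from estimated reads, triangles below the grey line are values listed at 0, and Fgfr2 has a row of its own only in the unperturbed table. After plucking, Fgf7 lies at 15.3 in wild type and 3.33 in cKO, while Fgf10 and Fgf18 are listed at 0 in both genotypes.

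Fgf7, also called keratinocyte growth factor, lies at chr2:126034658-126091185 on the plus strand of GRCm38 (ENSMUSG00000027208.14). Its FPKM was 15.3 in plucked wild type skin (interval 14.1 to 16.6) and 3.33 in plucked cKO skin (2.73 to 4.03). This is a log2 ratio of -2.17, or a 4.59-fold lower level in cKO (interval 3.73 to 5.70), far beyond counting error. In wounds, Fgf7 had 15.3 FPKM in wild type and 18.1 in cKO (log2 ratio 0.24). The unperturbed levels were 0.263 and 0.406 FPKM, on about 11 and 5 reads, and the interval of the fold of cKO over wild type (0.420 to 4.81) includes equality. The cKO value also lay below the median of olfactory, vomeronasal and taste receptor genes in that sample (0.543 FPKM). With the median of these genes subtracted, the unperturbed log2 ratio of Fgf7 was -1.86. Thus the large difference was seen in plucked skin and not in wounds, while the unperturbed level was too low to judge. Whether the pairs differ was not tested.

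Other genes share the locus from which Fgf7 was quantified, and whether reads were assigned by strand is not given in the sources used here. Of these neighbours, looked at after the values of Fgf7 were seen, Galk2 had 24.1 FPKM in wild type and 33.8 in cKO after plucking. Cops2 had 99.1 and 101, so both were at least as high in cKO, while Fam227b had 1.75 and was listed at 0 in cKO.

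Several, not all, markers of other skin cells were also lower in plucked cKO skin, where 6 of 6 fibroblast markers had a lower FPKM in cKO, 3 of them at least 2-fold, with log2 ratios from -0.44 for Lum to -2.26 for Col3a1. Skeletal muscle markers were at least 2-fold lower in 4 of 4 rows (196 FPKM summed in wild type, 25.04 in cKO), adipocyte markers in 3 of 5 (147 and 48.7) and leukocyte markers in 4 of 6 (215 and 89.3). By contrast, the adipocyte marker Adipoq had 8.76 FPKM in wild type and 17.4 in cKO, and Cd207, a marker of Langerhans cells, 8.40 and 15.8. Of 4 endothelial markers only Cdh5 was past 2-fold (26.0 and 10.6), while Pecam1 had 29.5 and 29.6, Kdr 4.32 and 3.23 and Tek 1.59 and 1.86. Relative to 1000 FPKM of the summed fibroblast markers, Fgf7 was at 2.998 in wild type and 1.80 in cKO. This scale depends on the markers chosen, since Col3a1, with 2559 and 535 FPKM, weighs most in the sum and was 4.78-fold lower in cKO. Pdgfra, Dcn and Lum were only 1.69-, 1.59- and 1.35-fold lower, beside 4.59-fold for Fgf7. Dermal papilla markers went both ways, since Corin had 9.25 and 0.455 FPKM and Wif1 8.40 and 3.06, whereas Alpl and Sox2 were listed at 0 in wild type and had 1.75 and 0.627 in cKO. In bulk skin, fewer cells of a type and less RNA per cell cannot be told apart, and the part of these markers in the level of Fgf7 was not tested. In wounds, where Fgf7 had 15.3 and 18.1 FPKM, 0 of 6 fibroblast markers were past 2-fold.

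**Figure D2:**
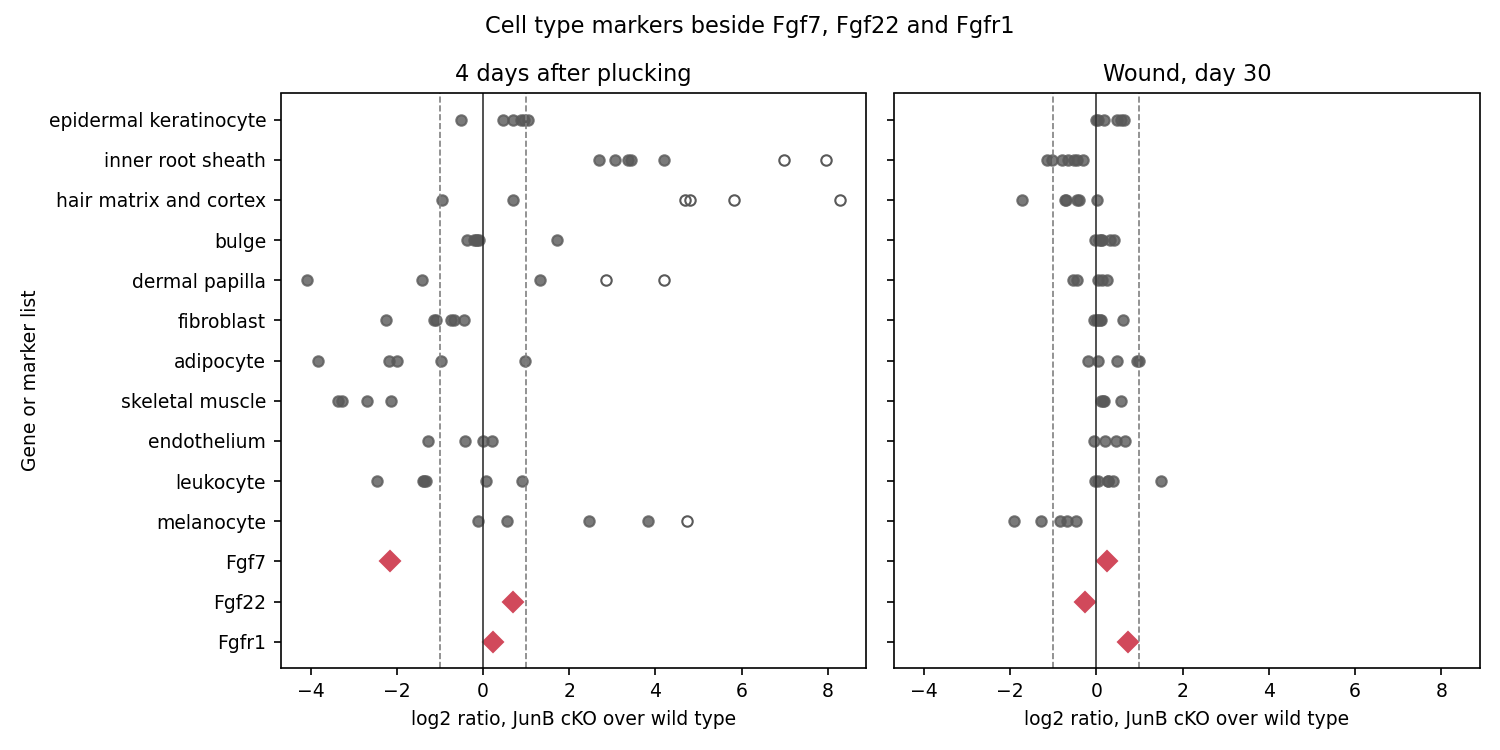
Log2 ratio of cKO over wild type for single marker genes (grey points, 1 row per cell type) and for Fgf7, Fgf22 and Fgfr1 (red diamonds), in plucked skin (left) and wounds (right). Open points are genes with 1 genotype listed at 0, and dashed lines mark 2-fold. After plucking, fibroblast and muscle markers lie left of 0 and inner root sheath markers right of it, with Fgf7 at -2.17 and Fgf22 at 0.69.

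Fgf18 lies at chr11:33117430-33147400 on the minus strand (ENSMUSG00000057967.12). It was the leading ligand of the unperturbed pair, at 13.8 FPKM in wild type and 10.4 in cKO, with 87.9% and 76.0% of the summed FPKM of the 5 ligands. The difference was within counting error, as the fold of cKO over wild type was 0.757 (interval 0.538 to 1.05). After plucking, Fgf18 was listed at 0 in both genotypes, which can also arise where the estimate fails. In wounds, Fgf18 had 2.65 FPKM in wild type (2.14 to 3.22) and 0.923 in cKO (0.642 to 1.31), a log2 ratio of -1.43 and a 2.87-fold lower level in cKO (1.89 to 4.34). Among symbols with 1 to under 10 FPKM in the higher genotype of the wound table, 11.5% were called lower. Fgf18 was not past 2-fold in wounds with a pseudocount of 1.

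The promoters of Fgf7 and Fgf18 are shown because these ligands carried the largest differences among those detected in both genotypes of the tissue samples, and because the 2 sequences differ in base composition. Each is the 250 bases before the gene start in RefSeq, build GRCm38.p6, 5′ to 3′ on the strand of the gene, for Fgf7 at chr2:126034408-126034657 (plus strand) and for Fgf18 at chr11:33147401-33147650 (minus strand). Capitals mark a GC box, for which GGGCGG was searched on both strands.
Fgf7: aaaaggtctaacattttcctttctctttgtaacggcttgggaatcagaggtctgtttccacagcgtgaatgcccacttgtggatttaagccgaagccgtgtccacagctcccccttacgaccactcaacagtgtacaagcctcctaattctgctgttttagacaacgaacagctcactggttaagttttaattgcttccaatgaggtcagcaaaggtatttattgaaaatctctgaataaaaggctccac
Fgf18: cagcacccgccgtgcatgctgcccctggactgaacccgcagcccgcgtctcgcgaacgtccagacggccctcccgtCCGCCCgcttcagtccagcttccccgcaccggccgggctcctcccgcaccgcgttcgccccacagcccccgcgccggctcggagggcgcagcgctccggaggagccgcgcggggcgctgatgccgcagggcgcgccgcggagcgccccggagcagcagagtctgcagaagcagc
The Fgf7 window holds 43.6% G and C and no GC box, and the Fgf18 window 77.2% and 1 GC box, beside a median of 52.4% over all RefSeq windows of this length. A promoter was given for 9 of the 10 members, and none for Fgfr1. GC boxes were found in 6 of these 9 (Fgf5, Fgf10, Fgf18, Fgf22, Fgfr3 and Fgfr4), beside 35.4% of 27025 symbols. The AP-1 motif TGACTCA, searched on both strands, which JunB dimers are known to bind, was in 0 of 9 and in 5.16% of symbols. Such matches describe these windows alone.

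Fgf5 (chr5:98254184-98277030, plus strand, ENSMUSG00000029337.2) encodes the ligand whose loss gives mice long hair. After plucking it was listed at 0 in wild type and had 1.45 FPKM in cKO (1.05 to 1.96), about 43 reads, and the log2 ratio of 3.96 depends on the pseudocount. Among plucked symbols with 1 to under 10 FPKM in the higher genotype, 29.2% were called higher. Wounds had 3.84 FPKM of Fgf5 for wild type and 3.17 for cKO (log2 ratio -0.27), a smaller and opposite difference. Unperturbed samples had 0.0257 FPKM in wild type and 0.349 in cKO, which is 1 read and 4 reads. Hence Fgf5 was there close to the limit of detection. A value of 0, as in plucked wild type skin, can also arise where the estimate fails, and after plucking 224 loci were listed at 0 in wild type with at least 10 FPKM in cKO, and 133 the reverse.

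Fgf10 (chr13:118669791-118792115, plus strand, ENSMUSG00000021732.14) encodes a dermal ligand of the same receptor form as FGF7. Its unperturbed level was 0.176 FPKM in wild type and 1.147 in cKO, about 12 and 22 reads (log2 ratio 2.18). It was listed at 0 in both plucked samples, which can also arise where the estimate fails. In wounds Fgf10 had 2.95 and 2.05 FPKM (log2 ratio -0.50, fold of cKO over wild type 0.695, interval 0.602 to 0.803). The annotation places an antisense gene, Gm16263, across part of Fgf10, and whether its reads enter these values was not tested.

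Fgf22 lies at chr10:79755076-79758596 on the plus strand (ENSMUSG00000020327.4). It had 7.66 FPKM in plucked wild type skin (5.82 to 9.91) and 12.4 in cKO (9.73 to 15.6), a log2 ratio of 0.69. The interval of the fold, 1.13 to 2.32, lay above equality. Inner root sheath markers were higher in the same cKO sample, with 7 of 7 at least 2-fold higher and a sum of 654 FPKM against 64.6 in wild type, and their part in the level of Fgf22 was not tested. In wounds Fgf22 had 7.80 and 6.51 FPKM (log2 ratio -0.26) beside inner root sheath sums of 7383 and 4688. The interval of the fold of Fgf22 in wounds (0.653 to 1.07) includes equality. The unperturbed values were 1.44 and 1.39 FPKM, on only 11 and 3 reads with the transcript length used.

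**Figure D3:**
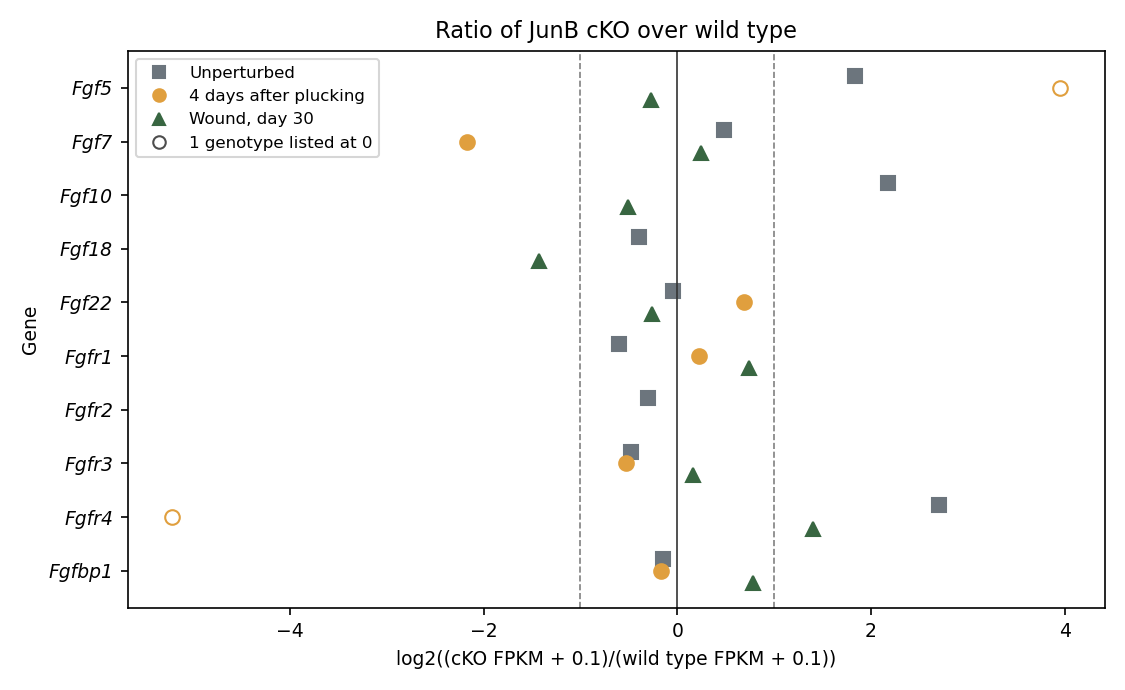
Log2 ratio of cKO over wild type (0.1 added to each FPKM) for each gene in the unperturbed pair (squares), plucked skin (circles) and wounds (triangles). Dashed lines mark 2-fold, open symbols have 1 genotype listed at 0, and genes listed at 0 in both genotypes are left out. Fgfr4 lies at -5.22 after plucking and 1.40 in wounds, and Fgfbp1 between -0.17 and 0.78.

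Fgfr1 and Fgfr3 had a higher FPKM than each of the 5 ligands in wild type of all tables (in the unperturbed pair with overlapping intervals for Fgfr1 and Fgf18), whereas Fgfr4 was the lowest member with a value above 0. Fgfr3 (chr5:33721674-33737068, plus strand, ENSMUSG00000054252.18), a receptor of the epidermis and follicle, had 59.8 FPKM in unperturbed wild type and 43.1 in cKO. After plucking it was at 64.9 and 45.1 FPKM, also lower in cKO (log2 ratios -0.47 and -0.53). Relative to the median of symbols with at least 1 FPKM in both genotypes, these log2 ratios were -0.30 and -0.53. In wounds Fgfr3 was at 45.9 and 51.4 FPKM (log2 ratio 0.16). None of these differences reached 2-fold, although all exceeded counting error, since the intervals of the fold of cKO over wild type were 0.668 to 0.775, 0.660 to 0.730 and 1.08 to 1.155.

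Fgfr1 (chr8:25513654-25575718, plus strand, ENSMUSG00000031565.18) is a main receptor of mesenchymal cells. Its values were 15.4 FPKM for unperturbed wild type and 10.1 for cKO (log2 ratio -0.61), 32.1 and 37.5 after plucking (0.22), and 34.7 and 57.9 in wounds (0.74). The fold of cKO over wild type in wounds was 1.67 (interval 1.62 to 1.72), past 1.5-fold and short of 2-fold. Within each sample FPKM can be compared between genes, and Fgfr3 was 3.89 times Fgfr1 in unperturbed wild type and 4.28 times in cKO. The ratio was 2.02 and 1.20 after plucking and 1.32 and 0.887 in wounds, so that the wound cKO sample was the only one of the 6 with more Fgfr1 than Fgfr3. In plucked cKO skin Fgfr1 was not lower with the fibroblast markers, at 20.2 FPKM per 1000 FPKM of these markers against 6.29 in wild type. An antisense gene, Gm16159, is annotated across part of Fgfr1, and its part in these values was not tested either.

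Fgfr2 (chr7:130162451-133123350, minus strand, ENSMUSG00000030849.18) gives the epithelial receptor of FGF7, FGF10 and FGF22 by splicing, which gene values do not resolve. This annotated span reaches far beyond the RefSeq promoter window of Fgfr2 at chr7:130266809-130267058. Where it was listed alone, unperturbed wild type had 56.3 FPKM and cKO 45.6 (log2 ratio -0.30). In plucked skin and wounds only a joint row with Ctbp2 was listed, with 129 and 146 FPKM after plucking and 92.4 and 111 in wounds. Ctbp2, which encodes a transcriptional co-repressor, had 6.00 and 6.46 FPKM in the unperturbed table, where it was listed alone. The joint row cannot be split, and its log2 ratios of 0.19 and 0.27 are not those of Fgfr2.

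Fgfr4 (chr13:55152640-55168759, plus strand, ENSMUSG00000005320.9), best known from liver and muscle precursors, was the receptor with the lowest level. It had 3.62 FPKM in plucked wild type skin (3.11 to 4.17), about 184 reads, and was listed at 0 in plucked cKO skin. Such a 0 can also arise where the estimate fails, and after plucking 133 loci were listed at 0 in cKO with at least 10 FPKM in wild type. In wounds the order was opposite, with 1.61 FPKM in wild type (1.39 to 1.84) and 4.41 in cKO (4.04 to 4.79), a 2.74-fold higher level (2.34 to 3.23). Both unperturbed values were low, at 0.0201 and 0.681 FPKM, about 1 and 11 reads. Among symbols of 1 to under 10 FPKM, 25.1% were called lower in plucked skin and 13.5% higher in wounds. Skeletal muscle markers, summed over the 4 with a row, went from 196 FPKM in wild type to 25.04 in cKO after plucking and from 4306 to 4971 in wounds, and their part in the level of Fgfr4 was not tested.

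Fgfbp1 (chr5:43978858-43981779, minus strand, ENSMUSG00000048373.8) encodes a secreted carrier that frees FGF ligands from heparan sulfate. It was the most abundant member in unperturbed samples, with 179 FPKM in wild type and 162 in cKO, and in plucked skin, with 101 and 89.9. In both the difference was small (log2 ratios -0.14 and -0.17). In wounds it had 28.6 and 49.3 FPKM, a log2 ratio of 0.78 and a 1.72-fold higher level in cKO (1.60 to 1.85). Krt5 and Krt14 together were at 1056 and 1325 FPKM in these wounds, and per 1000 FPKM of this sum Fgfbp1 was at 27.1 in wild type and 37.2 in cKO. Hence Fgfbp1 was higher in cKO wounds on both scales.

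By level in wild type, the unperturbed order was Fgfbp1, Fgfr3, Fgfr2, Fgfr1, Fgf18, Fgf22, Fgf7, Fgf10, Fgf5 and Fgfr4. Counting intervals overlapped between Fgfr3 and Fgfr2, between Fgfr1 and Fgf18, and between neighbours from Fgf7 downwards. In plucked wild type skin the order was Fgfbp1, Fgfr3, Fgfr1, Fgf7, Fgf22 and Fgfr4, without overlap, with the other ligands listed at 0. In wild type wounds it was Fgfr3, Fgfr1, Fgfbp1, Fgf7, Fgf22, Fgf5, Fgf10, Fgf18 and Fgfr4, with overlap only between Fgf10 and Fgf18.

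How often genes passed 2-fold depended strongly on their level. For the unperturbed pair, 82.4% of symbols under 1 FPKM, 35.7% of those from 1 to under 10 and 1.67% of those at 10 or more were called higher in cKO. The called members were of the lower classes, with 2 of 3 under 1 FPKM (Fgf5 and Fgfr4) and 1 of 2 from 1 to under 10 (Fgf10). These calls are therefore near the background of their level. Genes of olfactory, vomeronasal and taste receptors, which serve smell and taste, had a median of 0 FPKM in unperturbed wild type and 0.543 in cKO, with a 90th percentile of 0 and 1.35. The cKO levels of Fgf5, Fgf7, Fgf10 and Fgfr4 all lay below this 90th percentile. At 10 FPKM or more, 5 of 5 members (Fgf18, Fgfr1, Fgfr2, Fgfr3 and Fgfbp1) had a ratio below 0, in a class where 21.3% of symbols had a ratio above 0. The median log2 ratio of symbols with at least 1 FPKM in both genotypes was -0.17. Relative to it the log2 ratios were -0.23 for Fgf18, -0.43 for Fgfr1, -0.13 for Fgfr2, -0.30 for Fgfr3, 0.03 for Fgfbp1 and 0.13 for Fgf22, so that the last 2 changed sign.

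**Figure D4:**
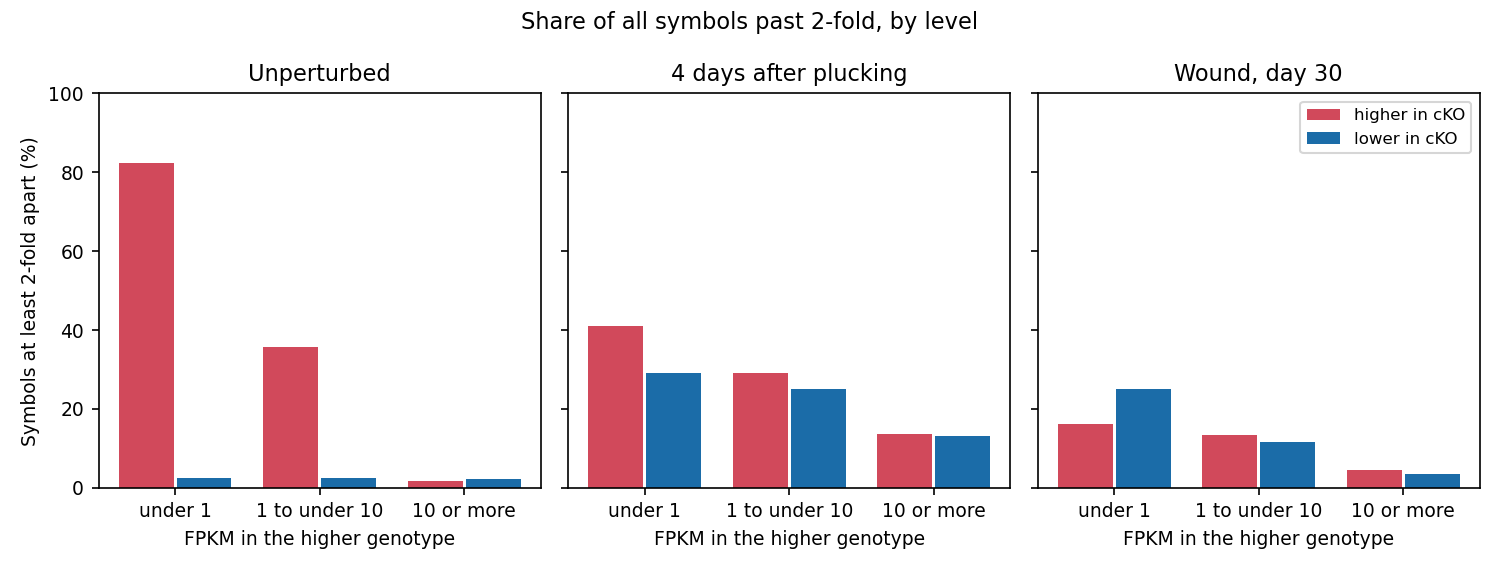
Share of all symbols (percent) at least 2-fold higher (red) or lower (blue) in cKO, by the FPKM of the genotype with the higher value, in each table. Without perturbation 82.4% of symbols under 1 FPKM are higher in cKO and 2.5% lower, whereas at 10 FPKM or more the shares are 1.67% and 2.29%.

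In plucked skin 13.7% of symbols at 10 FPKM or more were called higher and 13.1% lower, and of 5 members at this level 1 (Fgf7) was called. In wounds the shares were 4.46% and 3.63%, and 4 of 4 members at this level (Fgf7, Fgfr1, Fgfr3 and Fgfbp1) had a ratio above 0 without passing 2-fold. Of all symbols at this level in wounds, 47.6% had a ratio above 0. Of the 5 members from 1 to under 10 FPKM in wounds, 4 (Fgf5, Fgf10, Fgf18 and Fgf22) had a ratio below 0, in a class where 55.1% of symbols had a ratio above 0, and for Fgf22 the interval of the fold includes equality.

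A list of 55 further FGF pathway genes was described in the same way. Its class of 17 other ligands was set by gene name and includes Fgf11, Fgf12, Fgf13 and Fgf14, which act inside cells. Among unperturbed samples 18 of 54 genes with a row were called higher and 0 lower, which is no more than the 37.8% of all symbols called higher, and 14 of these 18 were among the 17 other ligands, of which 9 were listed at 0 in wild type. With at least 1 FPKM these were Fgf3, Fgf8, Fgf20 and Fgf23 (listed at 0 in the wild type sample, with 2.02, 1.0046, 1.10 and 1.12 FPKM for cKO), Fgf2 (0.239 and 1.62), Fgf9 (0.105 and 1.58), Fgf11 (0.867 and 2.101) and Fgf21 (0.159 and 1.08), besides the carrier gene Fgfbp3 (1.67 and 3.87). Of the 10 other ligands with at least 1 FPKM, 8 were called higher, beside 35.7% of all symbols from 1 to under 10 FPKM. All 8 were under 1 FPKM in wild type and at 1.0046 to 2.101 in cKO, the low end of this class. Fgf8, Fgf20, Fgf21 and Fgf23 lay below the 90th percentile of olfactory, vomeronasal and taste receptor genes in that cKO sample (1.35). The share of 35.7% is therefore not a matched background for these 8. Under 1 FPKM, 82.4% of all symbols were called higher. Of the 17 other ligands, those with the highest level in unperturbed wild type were Fgf1 (3.37 and 3.89 FPKM), Fgf13 (1.96 and 2.97) and Fgf11. Of the abundant genes, the heparan sulfate proteoglycans Sdc1 (333 and 225) and Sdc4 (239 and 156), the adhesion protein Flrt3 (35.2 and 42.1), the kinases Mapk3 (78.3 and 89.1) and Map2k2 (31.1 and 21.2), and the feedback inhibitors Dusp6 (38.3 and 24.6), Spry1 (25.7 and 23.2) and Spred2 (14.99 and 12.8) stayed within 2-fold.

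After plucking 6 of the 54 genes with a row were called higher and 11 lower. Of the 38 with at least 1 FPKM, 5 were called higher and 8 lower, beside 21% and 18.7% of all symbols at this level. Of 12 feedback and target genes 4 were called higher and 2 lower. Etv1 (0.619 FPKM in wild type and 4.64 in cKO) and Etv4 (4.88 and 12.02), which encode ETS factors, and the inhibitors Spry1 (5.64 and 15.8) and Spry2 (7.48 and 15.2) were the 4 higher ones. The phosphatase gene Dusp4 (1.74 and 0.183) was called lower, and Dusp6 (124 and 104), Spred1 (27.3 and 23.2) and Etv5 (9.998 and 10.8) were within 2-fold. Of the co-receptors and modulators 4 of 13 were called lower and 0 higher. They were the decoy receptor Fgfrl1 (5.52 and 0.820), the inhibitor Il17rd (3.44 and 0.784), Sdc1 (198 and 94.6) and Sdc3 (16.6 and 7.88), whereas Sdc4 (209 and 153) and Flrt3 (47.5 and 33.7) were within 2-fold. In the cascade Grb2, an adaptor, had 11.6 and 29.9 FPKM and was called higher, while Mapk3 (91.8 and 51.2) and Ptpn11 (64.7 and 67.9) were within 2-fold. Among the other ligands Fgf13 (5.01 and 1.07) and Fgf14 (1.17 and 0.478), which like Fgf11 act inside cells, were called lower. Fgf1 (3.58 and 4.56) and Fgf11 (1.31 and 1.03) were not called.

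In wounds 3 pathway genes were called higher and 5 lower, and of the 41 with at least 1 FPKM 2 and 2 were, beside 9.08% and 7.67% of all symbols at this level. With at least 1 FPKM these were the target gene Etv5 (2.36 FPKM in wild type and 6.14 in cKO) and the co-receptor Klb (0.578 and 1.41), both higher, and the ligands Fgf9 (1.02 and 0.434) and Fgf20 (1.49, listed at 0 in cKO), both lower. The most abundant genes of the class of other ligands were Fgf14 (9.26 and 6.78), Fgf1 (6.10 and 9.41) and Fgf13 (4.03 and 4.31). All were within 2-fold, and Fgf13 and Fgf14 act inside cells. So were Sdc1 (138 and 123), Sdc4 (111 and 120), Flrt3 (63.2 and 52.9), Mapk3 (67.4 and 45.0), Hras (56.1 and 49.5), Spred1 (28.7 and 32.9), Dusp6 (24.4 and 30.5) and Etv4 (16.2 and 23.7). The median log2 ratio of the pathway list was 0.28 in the unperturbed pair, 0.00 after plucking and 0.03 in wounds. After plucking 12 of its genes were listed at 0 in both genotypes and entered with a ratio of 0. With at least 1 FPKM the medians of the list were 0.10, -0.06 and 0.09, beside -0.04, 0.03 and 0.02 for all symbols. Fgf2 had no row of its own in the tissue tables and Hras none in the unperturbed table.

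**Figure D5:**
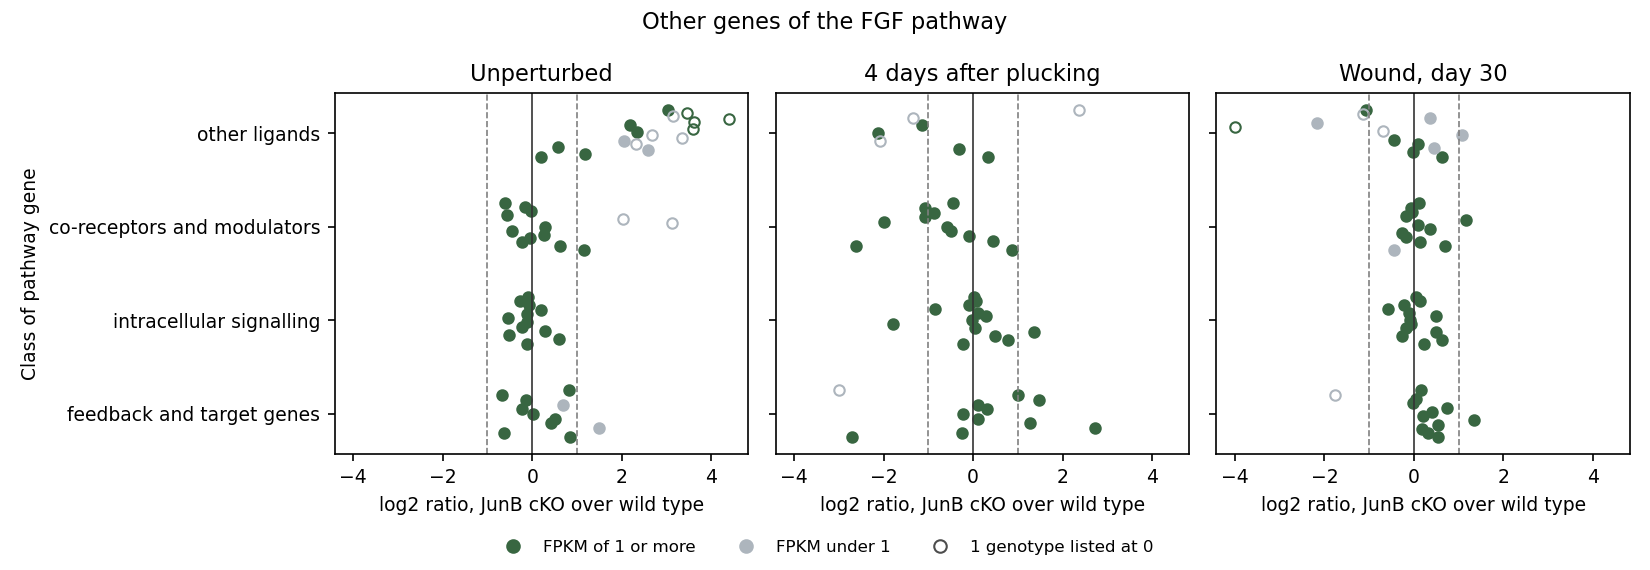
Log2 ratio of cKO over wild type for the other genes of the FGF pathway, 1 point per gene, by class and table (green, at least 1 FPKM in either genotype, grey, under 1 FPKM, open, 1 genotype listed at 0). Dashed lines mark 2-fold, and the vertical spread within a class has no meaning. Before perturbation 14 of 17 other ligands lie right of 2-fold, beside 82.4% of all symbols under 1 FPKM and 35.7% of those from 1 to under 10. After plucking 4 of 13 co-receptors and modulators lie left of 2-fold, beside 18.7% of all symbols at 1 FPKM or more.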

How the data were processed

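The authors made stranded libraries from RNA without rRNA, sequenced single reads, trimmed them with FASTX, mapped them with TopHat or HISAT2 on GRCm38 and ran Cufflinks and Cuffdiff. The deposited tables hold 1 FPKM value per genotype and locus. Their further columns (the authors' log2 fold change, test statistic, p-value, q-value and calls) were not used. The 8 libraries were grouped by their labels, and the conditions of the plucked and wound tables rest on the names of these tables. The members and gene lists were chosen with earlier results of these data known.

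Of several loci with 1 symbol, that of highest FPKM over both genotypes was kept. Log2 ratios used a pseudocount of 0.1 and a limit of 2-fold, without a test. Named pathway genes were those past 2-fold with at least 1 FPKM, and the 3 with the highest wild type FPKM of each class, except that some are not reported here. Markers are named where they bear on a member. Reads were estimated from single-exon loci of 700 to 4000 bases, since FPKM times the locus length less 200 bases fell within 0.05 of whole multiples of 1 step for 94.6% to 98.5% of loci under 40 reads in the unperturbed and plucked tables. In wounds 27.9% and 57.4% did with a single step, so reads there are approximate. Member lengths were those of the GENCODE M21 coding transcript of at least 600 bases closest to the locus, and coordinates are from this annotation. The scripts were tested on simulated data. Alternatives were pseudocounts of 0.01 and 1, centring, summed loci, subtraction of the median of receptor genes, a minimum of 1 FPKM and a 1.5-fold limit. Python 3.11.15, pandas 2.3.3, numpy 2.4.6, scipy 1.17.1 and matplotlib 3.10.9 were used. A planned comparison of protein sequences was not made.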

Additional observations from a re-analysis of the deposited data

Results flagged for a closer look

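Fgfr4 was past 2-fold in opposite directions in the tissue tables. Its log2 ratio of cKO over wild type was -5.22 in plucked skin, from 3.62 FPKM to a value listed at 0, and 1.40 in wounds, from 1.61 to 4.41 FPKM. Each rests on 1 value per genotype, the first ratio depends on the pseudocount, and the difference between the conditions was not tested. The value of 0 in plucked cKO skin can also arise where the estimate fails.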

How the results depend on the processing

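With a pseudocount of 0.01, with loci summed or with centring, the members called in each table were the same as with the chosen settings. With a pseudocount of 1, 0 members (of 3) were called in the unperturbed pair and 1 (of 2) in wounds, where the call of Fgf18 was lost, and 6 (of 18), 10 (of 17) and 2 (of 8) pathway genes were called in the unperturbed pair, plucked skin and wounds. With a minimum of 1 FPKM, 1 member and 9 pathway genes were called in the unperturbed pair and 4 pathway genes in wounds. Subtraction of the median FPKM of receptor genes left 10 pathway genes in the unperturbed pair, turned the log2 ratio of Fgf5 there from 1.84 to -0.33, ended the calls of Fgf5 and Fgfr4, and called Fgf7 lower (-1.86). A limit of 1.5-fold gave 4 members and 13 pathway genes in wounds. Taking the joint row with Ctbp2 for Fgfr2, an alternative chosen after seeing the data, added no call. The plucked log2 ratios of Fgf5 and Fgfr4 were 7.19 and -8.50 with a pseudocount of 0.01 and 1.29 and -2.21 with 1, and that of Fgf7 kept its call in each alternative. No paired analysis was possible because the wound table does not separate its libraries, and the planned limma fit, leave-one-out values and replicate block were not run for the same reason. Depth limits Fgf5, Fgf7, Fgf22 and Fgfr4 in the unperturbed cKO sample, which rest on 3 to 11 reads.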
